A study of Homo sapiens with 20 samples.

Results

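Gallbladder cancer and extrahepatic bile duct cancer arise in neighbouring parts of the same drainage system, and 12 of the 20 established cell lines profiled in the series come from these 2 sites. The lines were chosen by their site label alone: 7 lines labelled Gallbladder (SNU-308, TGBC14TKB, TGBC2TKB, G415, NOZ, OCUG-1 and Mz-ChA-2) against 5 labelled Extrahepatic (EGI-1, Sk-ChA-1, SNU-1196, SNU-245 and TFK-1). RNA was sequenced with a stranded poly(A) kit from untreated cultures that shared a serum-supplemented DMEM medium, with 1 library per line, so the replicates are separate cell lines and the errors and p-values describe how far such lines differ. The series title names molecular subtypes and drug targets as its concern. Of the gallbladder lines, SNU-308, TGBC14TKB and TGBC2TKB came from a primary tumour, G415, NOZ and OCUG-1 from ascites and Mz-ChA-2 from a liver metastasis. Of the extrahepatic lines, EGI-1, SNU-1196, SNU-245 and TFK-1 came from a primary tumour and Sk-ChA-1 from ascites. Because 4 of 7 gallbladder lines but 1 of 5 extrahepatic lines are metastatic, each comparison was repeated among primary lines, 3 against 4. Cell lines hold tumour cells without their stroma and bile, which limits them as models of either site.

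The gallbladder and the extrahepatic ducts are lined by a simple columnar epithelium that carries keratins 7, 8, 18 and 19, secretes mucin and modifies bile. Carcinomas of this tract keep parts of that programme and can take on gastric or intestinal genes, or lose epithelial junction genes and gain genes of the contractile cytoskeleton and matrix. Survival signalling through the BCL2 family, receptor kinases such as ERBB2, WNT target genes and antigen presentation genes are among the features by which such tumours are commonly compared.

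Libraries held 11619162 to 14289644 counts in gallbladder lines and 10469013 to 15414668 in extrahepatic lines. Where a gene had no count its level may still be as high as 3 counts, which is 0.195 to 0.287 CPM (counts scaled to a common library size, the usual CPM unit) depending on the library; this limit covers counting error only. The defining keratins were present: KRT18 ran from 155 to 1550 CPM in gallbladder lines and from 404 to 3030 CPM in extrahepatic lines, while KRT19 ran from 148 to 3290 CPM in gallbladder lines and from 1530 to 6950 CPM in extrahepatic lines. KRT7 was nearly absent in Mz-ChA-2 (0.235 CPM). Mz-ChA-2 also stood apart as the line with the lowest mean correlation to its own site (0.674) and with 6190 CPM summed over 20 hepatocyte genes, of which SERPINA1 gave 4670; that sum was at most 279 CPM in extrahepatic lines. Of the other cell types, 15 immune markers summed to 18.1 to 609 CPM in gallbladder lines and 56.0 to 3140 CPM in extrahepatic lines, with 2 markers at 0 everywhere and the highest sum in SNU-245, where lysozyme (LYZ) gave 3060. In 12 endothelial genes the range was 12.4 to 480 CPM against 4.66 to 40.2 CPM, and in 12 fibroblast genes 10.7 to 1020 CPM against 6.5 to 517 CPM. The part of these transcripts in the results was not tested, and in bulk RNA fewer cells of a kind and less RNA per cell cannot be told apart.

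The site accounted for a modest share of the differences between lines. Across 14541 genes, 14.8% of the variance of log2 CPM lay between gallbladder and extrahepatic lines, where 9.09% is the share expected of any such division (exact permutation p = 0.0114, one-sided, over all 792 assignments of lines to the sites). When assignments were permuted only within primary and within metastatic lines, p was 0.00571, the smallest that the 175 possible assignments can give. Tumour origin, primary or metastatic and unevenly divided between the sites, accounted for 16.0% of the variance over the same 12 lines (exact permutation p = 0.00505, one-sided), a larger share than that of the site. Among primary lines the site share was 22.3%, where 16.7% is expected (exact permutation p = 0.0571, one-sided; the smallest possible is 0.0286). Pairs of gallbladder lines correlated at 0.715 on average (21 pairs), pairs of extrahepatic lines at 0.761 (10 pairs) and pairs across the sites at 0.703 (35 pairs). For 9 of the 12 lines the most similar line was of its own site. The exceptions were SNU-308 and TGBC14TKB, nearest to TFK-1, and TFK-1, nearest to SNU-308.

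**Figure D1:**
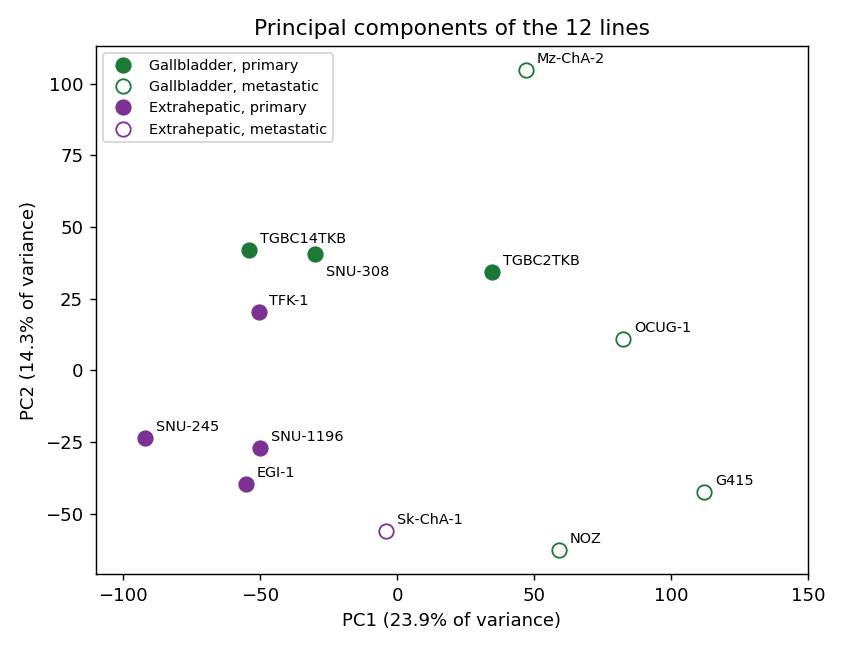
Principal components of log2 CPM over the most variable of the genes tested, 1 point per line, coloured by site and filled for primary tumours. The axes give the share of the variance of those genes (PC1 23.9%, PC2 14.3%). All 5 extrahepatic lines lie below 0 on PC1 together with SNU-308 and TGBC14TKB, and the other 5 gallbladder lines lie above 0.

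BCL2L15 fell in the gallbladder lines and was the single gene called between the sites. It encodes a BCL2 family member whose mouse counterpart is known from the gastrointestinal tract, where BCL2 proteins set the threshold for apoptosis. The 7 gallbladder lines had 0.22 CPM in G415, 1.49 in Mz-ChA-2, 0.225 in NOZ, 0.541 in OCUG-1, 0.273 in SNU-308, 0.279 in TGBC14TKB and 0.686 in TGBC2TKB, which are 3 to 19 reads per library. The extrahepatic lines had 16.9 CPM in EGI-1, 61.4 in Sk-ChA-1, 22.5 in SNU-1196, 17.2 in SNU-245 and 69.1 in TFK-1, which are 174 to 994 reads. The sites did not overlap, and the highest gallbladder line lay more than a factor of 10 below the lowest extrahepatic line. The mean was 0.531 ± 0.459 CPM in gallbladder lines (SD, n = 7) and 37.4 ± 25.7 CPM in extrahepatic lines (SD, n = 5). The log2 difference, gallbladder minus extrahepatic, was −6.12 ± 0.68 (SE; edgeR quasi-likelihood test, Benjamini-Hochberg adjusted p = 0.00988). Of the 14541 genes tested this is 1 lower call, or 0.00688%, beside 0 higher calls, or 0.0%. At an unadjusted p under 0.05, 679 genes were lower (4.67%) and 627 higher (4.31%), which is 8.98% in either direction; DESeq2 called 122 lower and 130 higher and limma-voom called 0. Leaving out each line in turn kept the BCL2L15 call, with adjusted p from 0.00296 to 0.0474.

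The call did not hold in every fit. The BCL2L15 difference was −6.23 among primary lines (adjusted p = 0.271), −6.13 with limma-voom (0.165) and −6.13 in a fit over 19 lines of 4 sites (0.138). With the repository that supplied each line as a covariate, DSMZ and Zurich joined in 1 level, it was −5.48 (adjusted p = 0.279). Within the KCLB and Zurich lines, the repositories that supplied both sites, it was −5.76 (0.72), with that covariate kept. That last fit held only SNU-308 and Mz-ChA-2 against SNU-1196, SNU-245 and Sk-ChA-1, too few lines for its adjusted p to say much. The labels give no sequencing batch. Among the 12, the RIKEN and HSRRB lines are all from gallbladder and the DSMZ lines all extrahepatic, so for these the source and the site cannot be told apart.

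The 250 bases before the annotated start of BCL2L15 are shown because it is the gene called (RefSeq, GRCh38.p14, chr1:113887582-113887831, minus strand, printed 5′ to 3′ along the gene). The capitals mark AGGAAGTA, letters of the kind bound by ETS factors. A search of both strands found them in 1.35% of the 35116 promoter windows of the table, each of 300 bases (250 before the start and 50 after it). The match is a description of the sequence and no evidence of binding.
BCL2L15: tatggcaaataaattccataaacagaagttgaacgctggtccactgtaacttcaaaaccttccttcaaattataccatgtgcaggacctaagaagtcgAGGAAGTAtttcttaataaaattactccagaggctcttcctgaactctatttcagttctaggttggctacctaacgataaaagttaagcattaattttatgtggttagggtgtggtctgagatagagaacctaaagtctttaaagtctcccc

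Across the family, 19 of 21 BCL2 genes had enough counts to be tested. Of these, 4 were lower and 0 higher at an unadjusted p under 0.05, and the median log2 difference was −0.26, beside 0.07 over all genes tested. BCL2L14, a relative of BCL2L15, had 0.0733 to 2.74 CPM in gallbladder lines, with a median of 0.172, against 2.83 CPM in EGI-1, 3.7 in Sk-ChA-1, 0.908 in SNU-1196, 38.7 in SNU-245 and 0.626 in TFK-1; the sites overlapped (log2 difference −3.49, adjusted p = 0.498). A list score, the mean over tested members of log2 CPM centred on each gene's mean over the 12 lines, ran from −0.76 to 0.21 in gallbladder lines and from 0.32 to 0.54 in extrahepatic lines. This list and the gastric list were the 2 of 33 whose scores did not overlap between the sites. The family score depended on BCL2L15: over the other 18 members it ran from −0.68 to 0.38 in gallbladder lines and from 0.09 to 0.37 in extrahepatic lines, and the sites overlapped. Without SNU-245, 1 family member was lower at an unadjusted p under 0.05, and without Sk-ChA-1 or without TGBC2TKB, 2 were; the median was −0.48 without NOZ and −0.46 without TGBC14TKB.

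**Figure D2:**
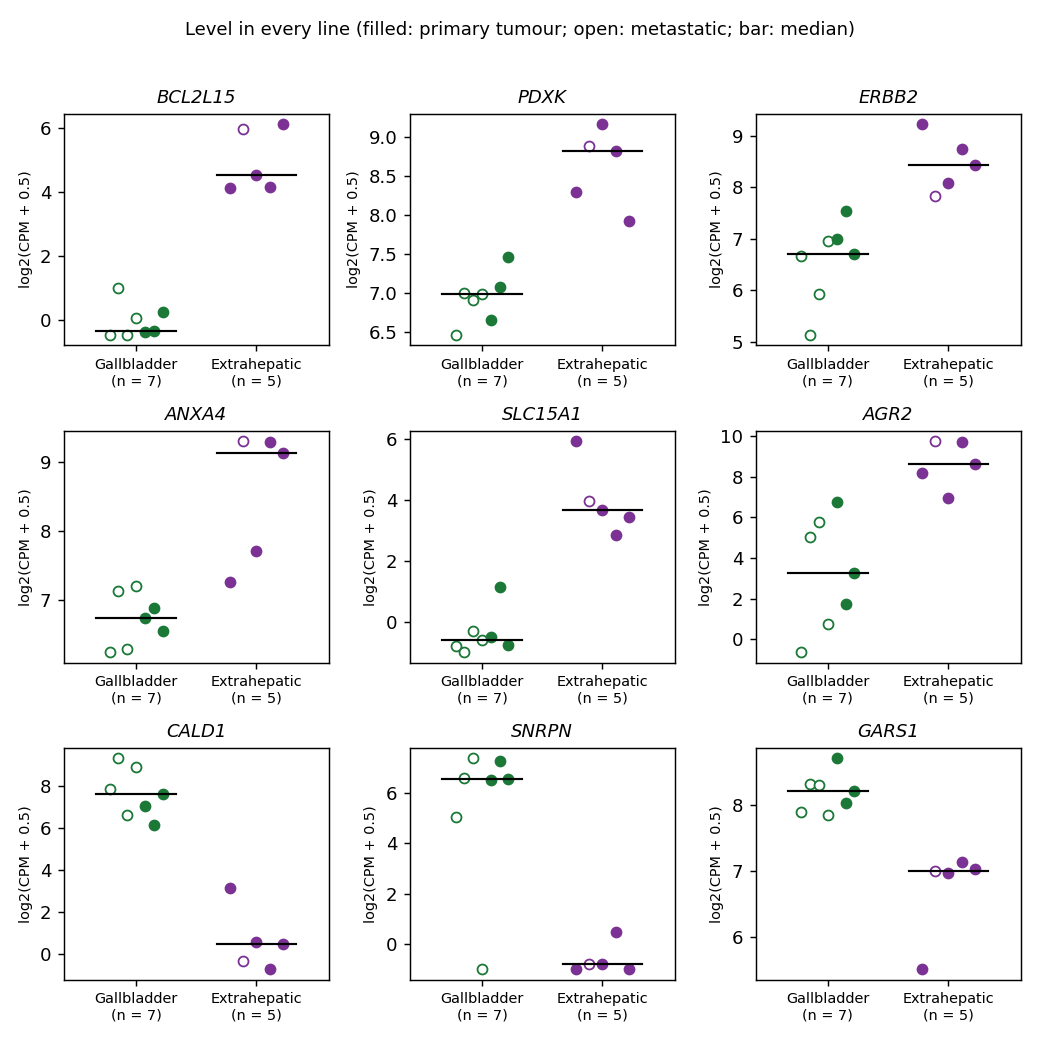
Level of 9 genes in every line as log2(CPM + 0.5), gallbladder lines on the left and extrahepatic lines on the right of each panel; filled points are primary tumours, open points metastatic, bars the median. The sites do not overlap in 8 panels, and in SNRPN the gallbladder line OCUG-1 lies with the extrahepatic lines.

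The other genes of smallest p on the lower side did not pass the adjusted threshold (adjusted p from 0.198 to 0.241). Many of them separated the sites completely. As they were picked by small p in the same lines, that separation is no further support for a difference. Among all genes tested, 53 had every gallbladder line below every extrahepatic line (0.364%) and 25 had every gallbladder line above (0.172%), or 0.536% in either direction. PDXK, the kinase that makes the active form of vitamin B6, had 87.6 CPM at the lowest, 126 at the median and 176 at the highest of the gallbladder lines, against 314 CPM in EGI-1, 470 in Sk-ChA-1, 572 in SNU-1196, 449 in SNU-245 and 241 in TFK-1 (log2 difference −1.72 ± 0.27 SE, adjusted p = 0.198). TGBC2TKB was the highest gallbladder line and TFK-1 the lowest extrahepatic line, and the sites did not overlap.

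Several of the genes of smallest p were near 0 in gallbladder lines. SLC15A1, the di- and tripeptide transporter PEPT1 of the small intestine, had 0 to 1.68 CPM in gallbladder lines (median 0.155), against 60.5 in EGI-1, 15.1 in Sk-ChA-1, 12.2 in SNU-1196, 6.64 in SNU-245 and 10.4 in TFK-1. TGBC14TKB was the highest gallbladder line, and without it SLC15A1 passed the threshold (adjusted p = 0.0259), where over the 12 lines it did not (adjusted p = 0.225). GPR35, a G protein-coupled receptor of gut epithelium and leukocytes, had 0.0733 to 3.68 CPM in gallbladder lines (median 0.768), against 43.1 in EGI-1, 3.55 in Sk-ChA-1, 26.5 in SNU-1196, 227 in SNU-245 and 32.6 in TFK-1. Mz-ChA-2 and Sk-ChA-1 met there, so the sites overlapped, whereas the primary lines did not. TMPRSS2, a serine protease of the epithelial surface, had 0 to 2.72 CPM in gallbladder lines (median 0.157), against 59.8, 19.1, 52.1, 144 and 2.16 CPM in EGI-1, Sk-ChA-1, SNU-1196, SNU-245 and TFK-1. The noncoding transcript LINC01559 had 0 to 1.73 CPM in gallbladder lines, against 2.95 to 106 CPM in extrahepatic lines, without overlap.

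Other genes of small p, of varied function, were expressed at both sites. MAP3K1, a kinase upstream of JNK and ERK, had 12.1 CPM at the lowest, 16.5 at the median and 35.7 at the highest of the gallbladder lines, against 130, 50.9, 60.9, 40.0 and 59.0 CPM in EGI-1, Sk-ChA-1, SNU-1196, SNU-245 and TFK-1 (log2 difference −1.80 ± 0.36 SE, adjusted p = 0.225). IRS2, an adaptor of the insulin and IGF receptors, had 19.6, 30.8 and 45.9 CPM as lowest, median and highest of the gallbladder lines, against 95.8, 55.2, 90.0, 150 and 64.2 CPM in the extrahepatic lines in the same order (−1.52 ± 0.31 SE, adjusted p = 0.225). In neither gene did the sites overlap. The same held for CCDC6, known as a fusion partner of RET, with 52.6 to 104 CPM in gallbladder lines against 171 to 377 CPM in extrahepatic lines, for the solute carrier SLC45A4, with 12.8 to 32.1 against 47.4 to 160 CPM, and for the small GTPase RAB40B, with 1.88 to 9.85 against 11 to 113 CPM. By the width of the gap between the sites the lower genes were led by BCL2L15 and SLC15A1, followed by TRIM31, a ubiquitin ligase of the gut, with 0.0733 to 35 CPM against 64.2 to 312 CPM, SULF2, an enzyme that edits heparan sulfate, with 0.273 to 15.9 against 28.8 to 806 CPM, and C1orf116, with 4.25 to 87.6 against 153 to 317 CPM.

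ERBB2, the receptor kinase HER2 and a drug target in this disease, was the 1 of 14 tested members of the receptor kinase list whose sites did not overlap. Gallbladder lines had 101 CPM in G415, 34.7 in Mz-ChA-2, 60.7 in NOZ, 123 in OCUG-1, 127 in SNU-308, 186 in TGBC14TKB and 104 in TGBC2TKB. Extrahepatic lines had 598 CPM in EGI-1, 228 in Sk-ChA-1, 269 in SNU-1196, 425 in SNU-245 and 347 in TFK-1. The log2 difference was −1.83 ± 0.39 (SE, unadjusted p = 0.000447, adjusted p = 0.26), and −1.56 among primary lines, which are part of the 12. ERBB3, its partner without kinase activity of its own, had 6.59 to 400 CPM in gallbladder lines (median 40.6) against 21.7 to 794 CPM in extrahepatic lines and overlapped (−2.01, adjusted p = 0.578). The list as a whole had 6 members above and 8 below 0, with a median of −0.70, which was 0.01 without EGI-1, −0.18 without SNU-245 and −0.27 without TFK-1.

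Epithelial identity genes lay below 0 across the list, and their levels moved with tumour origin. All 30 members of the epithelial list were tested and all 30 had a log2 difference below 0, with a median of −1.83, where 54.8% of all genes tested lay above 0; 3 of the 30 were lower at an unadjusted p under 0.05 and 0 passed the adjusted threshold. The list score was −4.49 in G415, −2.20 in Mz-ChA-2, −1.99 in NOZ and −3.16 in OCUG-1, the 4 metastatic gallbladder lines. It was 1.93 in SNU-308, 2.05 in TGBC14TKB and −0.97 in TGBC2TKB, the primary gallbladder lines, against 2.84, 2.07, 3.13 and 2.21 in the primary extrahepatic lines EGI-1, SNU-1196, SNU-245 and TFK-1 and −1.42 in the metastatic line Sk-ChA-1. The metastatic lines of either site thus all lay below −1.4, and TGBC2TKB was the single primary line below 0. With origin as a covariate 27 of the 30 stayed below 0 (median −0.97), and among primary lines 29 did (median −1.14). The count at an unadjusted p under 0.05 turned on single lines: it was 11 without TGBC14TKB, 9 without SNU-308, 8 without Sk-ChA-1, 5 without G415 and 1 without SNU-245.

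EPCAM, an adhesion molecule of simple epithelia, had 1.08 CPM at the lowest (OCUG-1), 83.3 at the median and 355 at the highest of the gallbladder lines, against 833 CPM in EGI-1, 126 in Sk-ChA-1, 845 in SNU-1196, 2110 in SNU-245 and 453 in TFK-1 (log2 difference −2.73, adjusted p = 0.52). KLF5, a transcription factor of dividing epithelium, and OCLN, a tight junction protein, were the list members of smallest p (unadjusted p = 0.0275 and 0.0132), with medians of 102 and 28.9 CPM in gallbladder lines and differences of −1.52 and −1.55. ELF3, an epithelial ETS factor, had 0.293 to 431 CPM in gallbladder lines, with SNU-308 and TGBC14TKB above 300 and the other 5 below 25, against 332 to 1230 CPM in extrahepatic lines.

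Of 24 biliary epithelium genes, 19 were tested; 5 were lower and 0 higher at an unadjusted p under 0.05, with a median of −1.52, and 8 of 20 were lower among primary lines. ANXA4, an annexin that binds membranes of secretory epithelia, had 75.2, 106 and 146 CPM as lowest, median and highest of the gallbladder lines, against 153 in EGI-1, 627 in Sk-ChA-1, 209 in SNU-1196, 624 in SNU-245 and 558 in TFK-1 (−2.01 ± 0.38 SE, adjusted p = 0.225). The sites did not overlap, though OCUG-1 at 146 CPM and EGI-1 at 153 CPM nearly met. KRT8, a keratin of simple epithelia, had 105 CPM in G415 and 725 to 2130 CPM in the other 6 gallbladder lines, against 1390 to 5610 CPM in extrahepatic lines (−1.77, adjusted p = 0.471). The list count was 3 without TGBC2TKB, without SNU-245 or without TFK-1, and 2 with origin as a covariate. Of 14 tested transporters of bile acids and drugs, 1 was lower at an unadjusted p under 0.05, the export pump ABCC3, with 6.52 to 512 CPM against 465 to 1110 CPM (−1.83, adjusted p = 0.514).

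Gastric and intestinal genes lay mostly below 0, but few had enough counts: 9 of 16 gastric and 7 of 21 intestinal genes measured were tested, and 0 passed the adjusted threshold. Of the gastric genes 8 of 9 had a difference below 0 and 3 were lower at an unadjusted p under 0.05 (median −2.54, or −3.85 without TGBC14TKB). The gastric score ran from −3.5 in G415 to −0.16 in SNU-308 among gallbladder lines and from 0.12 in SNU-1196 to 3.7 in SNU-245 among extrahepatic lines. AGR2, a disulfide isomerase of mucin-secreting cells, had 0.147 CPM in G415, 32.2 in Mz-ChA-2, 53.3 in NOZ, 1.16 in OCUG-1, 106 in SNU-308, 2.79 in TGBC14TKB and 9.18 in TGBC2TKB, against 295 in EGI-1, 857 in Sk-ChA-1, 122 in SNU-1196, 827 in SNU-245 and 400 in TFK-1. The sites did not overlap, with SNU-308 and SNU-1196 the nearest pair (−4.09 ± 1.2 SE, adjusted p = 0.45). The trefoil peptide TFF2, a secreted protector of gastric mucosa, had at most 0.977 CPM in gallbladder lines, against 21.1, 59.6, 9.23 and 3.76 CPM in EGI-1, Sk-ChA-1, SNU-1196 and SNU-245, while TFK-1 at 0.0695 CPM lay with the gallbladder lines.

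Of the 7 intestinal genes tested, all were below 0 and 3 were lower at an unadjusted p under 0.05 (median −3.89, or −1.56 without SNU-245), and the highest levels lay in a single extrahepatic line. LGALS4, an intestinal galectin, had 0.0733 to 1.19 CPM in gallbladder lines, against 1240 CPM in SNU-245 and 3.25 CPM or less in EGI-1, Sk-ChA-1, SNU-1196 and TFK-1. MUC13, a membrane mucin of the gut, had 0.15 to 20.9 CPM in gallbladder lines, against 655 CPM in SNU-245, 237 in TFK-1 and 3.63 to 15.1 in the other 3. SNU-245 had the top intestinal score, 6.69, and EGI-1 came next with 2.35. Mucin genes as a list had 9 members tested, all 9 below 0, with 4 lower at an unadjusted p under 0.05 (2 with origin as a covariate) and a median of −2.19, which was −3.72 without TGBC14TKB. The gel-forming mucin MUC5B had 0 to 40.6 CPM in gallbladder lines, against 149 in EGI-1, 680 in Sk-ChA-1, 0.227 in SNU-1196, 10.0 in SNU-245 and 2120 in TFK-1. Its difference of −6.01 turned to 0.96 with repository as a covariate.

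WNT target genes, which report transcription by beta-catenin, lay below 0 in 13 of 14 tested members, with 4 at an unadjusted p under 0.05 and a median of −2.16; among primary lines 16 of 16 were below 0 and 6 were at an unadjusted p under 0.05. For primary lines the background was 2.84% of 14915 genes lower and 3.61% higher at that p, with 0 calls after adjustment (0.0% in either direction), while 3.21% had no overlap on the lower side and 3.81% on the higher side (6.45% past that p and 7.03% without overlap in either direction). ZNRF3, a ubiquitin ligase that removes WNT receptors, had 10.7 to 24.8 CPM in gallbladder lines, against 95.5 in SNU-1196, 94.3 in SNU-245, 77.2 in TFK-1, 24.6 in EGI-1 and 14.1 in Sk-ChA-1 (−1.79 ± 0.45 SE, adjusted p = 0.346). AXIN2, a scaffold of the beta-catenin destruction complex, had 0.586 to 18.6 CPM in gallbladder lines, against 178 in SNU-1196, 238 in SNU-245 and 6.59 to 24.1 in the other 3. SNU-1196 and SNU-245 thus held the high end of both genes, with list scores of 2.89 and 2.97 where no other line exceeded 0.62. The list count was 7 without NOZ or without EGI-1, 8 without Sk-ChA-1 and 3 without SNU-1196 or without SNU-245, with medians of −1.65 and −1.63.

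**Figure D3:**
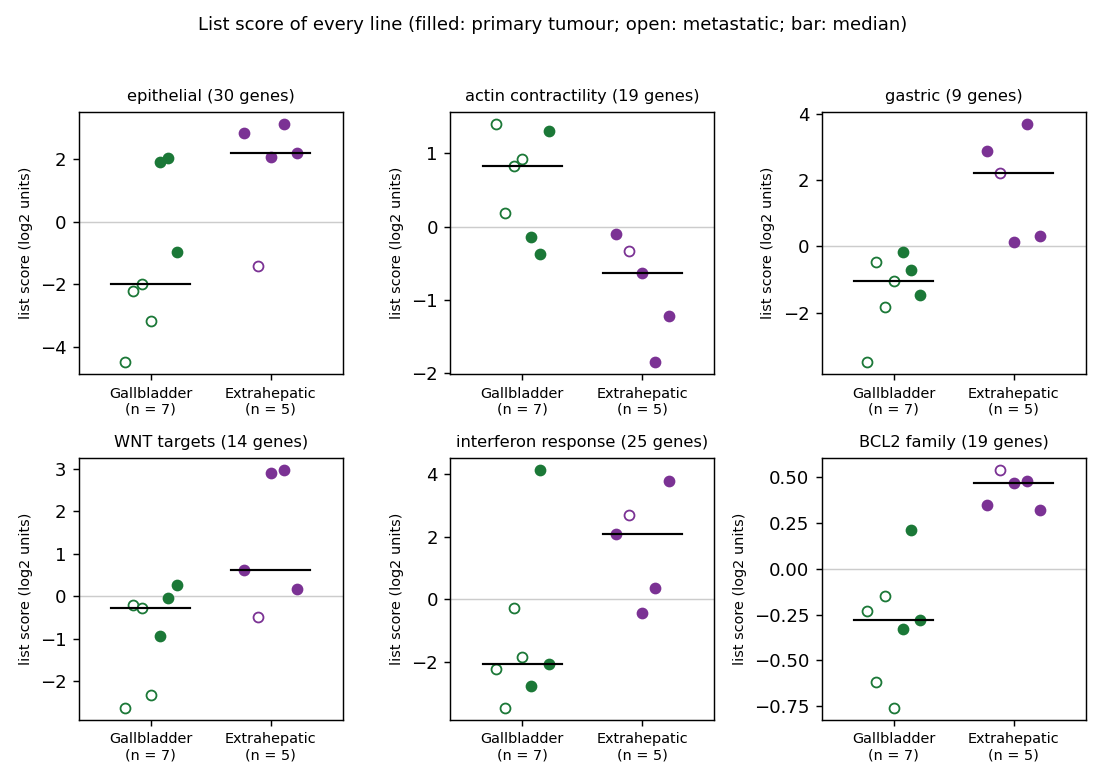
List score of every line for 6 gene lists, in log2 units centred on the mean of the 12 lines, gallbladder lines on the left; filled points are primary tumours, open points metastatic, bars the median. The sites do not overlap for the gastric list, nor for the BCL2 family list, whose score includes BCL2L15, the epithelial score divides by origin, and TGBC14TKB (4.14) lies far above the other gallbladder lines in the interferon panel.

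Genes of the contractile cytoskeleton and matrix lay mostly above 0, with primary gallbladder lines divided. CALD1, the actin- and myosin-binding protein caldesmon, had the smallest p of the higher genes: 234 CPM in G415, 646 in Mz-ChA-2, 99.6 in NOZ, 482 in OCUG-1, 133 in SNU-308, 70.7 in TGBC14TKB and 202 in TGBC2TKB, against 8.25 in EGI-1, 0.296 in Sk-ChA-1, 0.983 in SNU-1196, 0.0991 in SNU-245 and 0.904 in TFK-1. The sites did not overlap. As 4 of the 5 extrahepatic lines had 13 reads or fewer, the size of the fitted difference depends on the prior count. The log2 difference was 6.98 ± 1.21 (SE, unadjusted p = 7.39e-05, adjusted p = 0.225); without EGI-1 CALD1 passed (adjusted p = 0.0234), and among primary lines it was 5.71 (unadjusted p = 0.00212, adjusted p = 0.439). Sk-ChA-1, the metastatic extrahepatic line, had as little CALD1 as the primary ones, although its epithelial score lay with the metastatic lines.

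Of 20 actin contractility genes 19 were tested, 6 were higher and 0 lower at an unadjusted p under 0.05 (3 among primary lines), and the median was 1.29. CAVIN1, a coat protein of caveolae, had 146 to 804 CPM in gallbladder lines against 24.7 to 189 CPM in extrahepatic lines. Of 30 mesenchymal genes 18 had enough counts to be tested. Of these, 17 were above 0, 5 were higher at an unadjusted p under 0.05 and the median was 2.09. The number tested changed with the line left out: 12 of 22 were higher without Sk-ChA-1, with a median of 3.61. The count was 8 of 22 without SNU-1196, 8 of 21 without TFK-1 and 3 of 17 without G415. With EGI-1, Sk-ChA-1, SNU-1196 or SNU-245 left out, 22 members were tested each time and 21 lay above 0. How many mesenchymal genes lay above 0 is therefore in part set by which genes could be tested. The mesenchymal score was −1.66 in SNU-308 and −1.83 in TGBC14TKB, below 4 of the 5 extrahepatic lines (−0.5 in EGI-1, 0.31 in Sk-ChA-1, −1.08 in SNU-1196 and −1.15 in TFK-1, with SNU-245 at −2.74), while the other 5 gallbladder lines had 0.91 to 2.81. Fibronectin (FN1) had 9.36 CPM in TGBC14TKB and 13600 in OCUG-1 as the ends of the gallbladder range, against 0.605 to 136 CPM in extrahepatic lines (6.05 ± 1.89 SE, adjusted p = 0.47). Its receptor subunit ITGA5 had 17.2 to 507 CPM in gallbladder lines against 2.77 to 26.4 CPM in extrahepatic lines, with SNU-308 the gallbladder line inside the extrahepatic range (3.60, adjusted p = 0.346). YAP target genes had 4 higher and 1 lower of 22 at an unadjusted p under 0.05; CCN1, a secreted matrix protein, had 16.9 to 2750 CPM against 2.67 to 151 CPM, and the count of higher genes was 1 without TGBC2TKB and 2 without G415, SNU-1196, SNU-245 or TFK-1. TGF-beta targets had 2 higher of 17, among them the cell cycle inhibitor CDKN2B; the count was 4 without TGBC14TKB and 1 without TGBC2TKB, Sk-ChA-1 or SNU-1196.

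**Figure D4:**
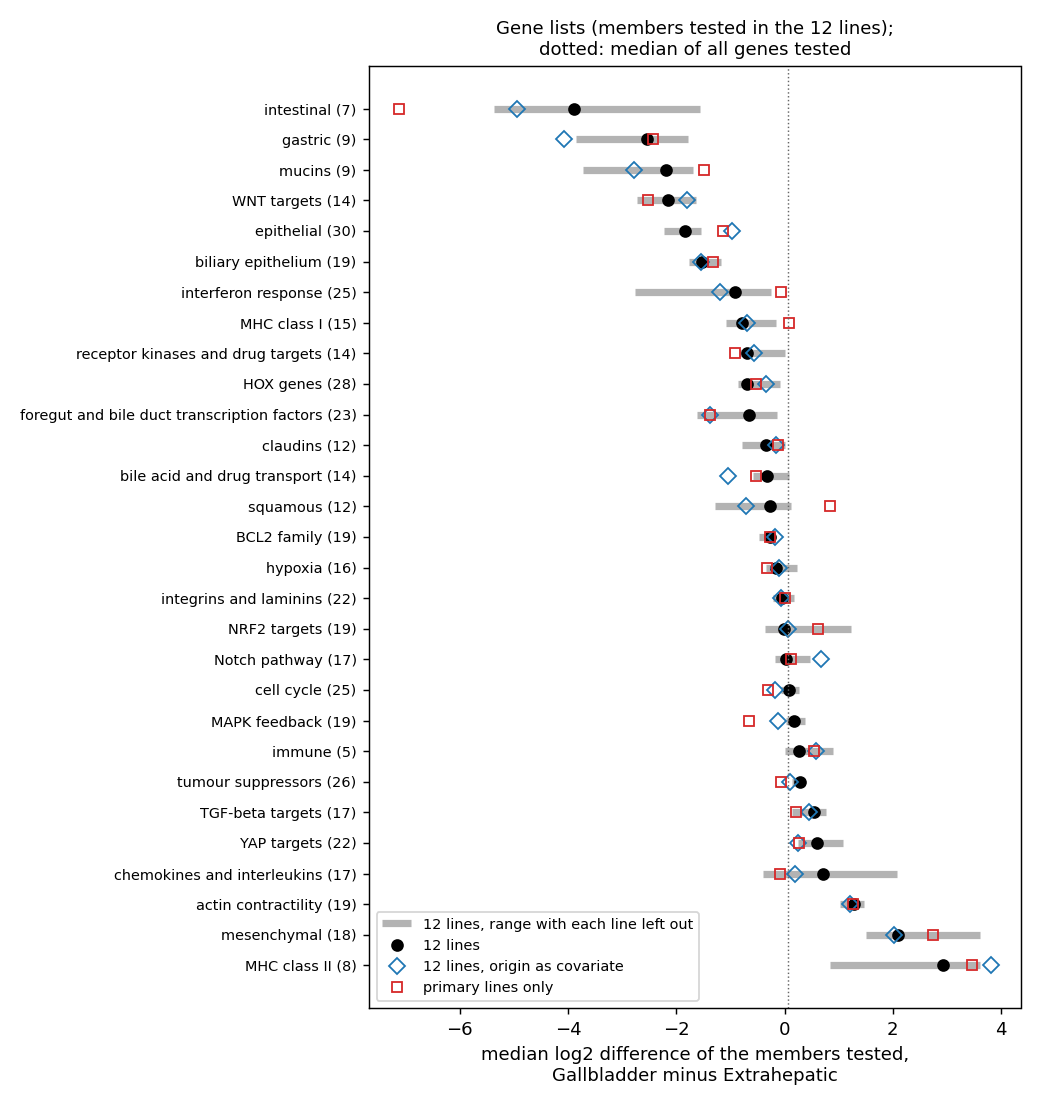
Median log2 difference, gallbladder minus extrahepatic, of the tested members of each list with at least 5 members; black points are the 12 lines, grey bars the range with each line left out, diamonds the fit with origin as a covariate and squares the primary lines. The intestinal, gastric, mucin, WNT and epithelial lists lie lowest in the 12 lines, with medians from −3.89 to −1.83, and the mesenchymal and MHC class II lists highest, at 2.09 and 2.92. The mesenchymal and MHC class II medians cover only members with enough counts to be tested. Some MHC class II members had these mainly through gallbladder lines.

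The imprinted genes of 15q11 separated the sites with 1 exception. SNRPN and SNURF, which share a transcript and have identical counts in the table, and the noncoding neighbours IPW and PWAR5 are normally read from the paternal copy only. SNRPN had 32.5 CPM in G415, 95.1 in Mz-ChA-2, 163 in NOZ, 90.4 in SNU-308, 151 in TGBC14TKB and 91.7 in TGBC2TKB, and no count in OCUG-1, against 0.892 CPM in SNU-245 and 0.0756 or less in EGI-1, Sk-ChA-1, SNU-1196 and TFK-1. IPW had 13.1 to 64.5 CPM and PWAR5 1.32 to 8.64 CPM in the same 6 gallbladder lines, no count in OCUG-1, and at most 0.495 and 0.0991 CPM in extrahepatic lines. Over 12 lines the adjusted p was 0.225 for SNRPN, 0.225 for PWAR5 and 0.254 for IPW. Without OCUG-1 all of these passed, SNRPN and SNURF at adjusted p = 0.0195 and IPW and PWAR5 at 0.0474. No fold is given for these 4 genes, whose extrahepatic lines lie at or near 0, since a fitted fold then depends on the prior count.

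Other higher genes were likewise near 0 in extrahepatic lines. ZNF90, a zinc finger gene, had 0.0784 CPM in Mz-ChA-2 and 2.12 to 27.2 in the other 6 gallbladder lines, against no count in any extrahepatic line. ZNF682, with no protein-coding gene starting between it and ZNF90 in the RefSeq order of chromosome 19, had 0 CPM in G415 and 0.902 to 18.7 in the other 6, against at most 0.0991 CPM. ARMCX2, an X-linked armadillo repeat gene, had 0.513 to 54.0 CPM in gallbladder lines, against at most 0.198 CPM, without overlap. LRRTM4, a synaptic adhesion gene, had 0.14 to 4.71 CPM, against at most 0.0756 CPM, and the noncoding LINC00654 0.0773 to 7.12 CPM, against at most 0.148 CPM. CLDN10, a claudin of ion-permeable junctions, had no count in G415 or NOZ and 2.23 to 29.6 CPM in the other 5, against at most 0.0991 CPM. Adjusted p over these 6 genes lay between 0.225 and 0.322.

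The 9p21 tumour suppressors CDKN2A, which encodes p16 and p14ARF, and CDKN2B, its neighbour, were expressed in 6 of 7 gallbladder lines. CDKN2A had 44.0 CPM in G415, 295 in NOZ, 425 in OCUG-1, 85.7 in SNU-308, 58.9 in TGBC14TKB and 121 in TGBC2TKB and no count in Mz-ChA-2, against no count in EGI-1 or TFK-1, 0.296 CPM in Sk-ChA-1, 0.0756 in SNU-1196 and 2.38 in SNU-245. CDKN2B had 33.5 to 235 CPM in the same 6 gallbladder lines and no count in Mz-ChA-2, against 18.4 CPM in SNU-245, 0.074 in Sk-ChA-1 and no count in EGI-1, SNU-1196 or TFK-1. MTAP, the enzyme gene next to them, chosen after its values were seen, had no count in Mz-ChA-2 and EGI-1 and 0.0695 CPM in TFK-1, and 36.8 CPM or more in every other line, so Sk-ChA-1, SNU-1196 and SNU-245 had MTAP with little CDKN2A. The adjusted p of CDKN2A was 0.286 over 12 lines, and among primary lines it passed without SNU-245 (adjusted p = 0.0299).

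Interferon response genes had lower scores in most gallbladder lines, but TGBC14TKB scored high and NOZ (−0.29) lay inside the extrahepatic range. Of 25 members, all tested, 23 had a difference below 0, with a median of −0.91 and 0 at an unadjusted p under 0.05. The score was 4.14 in TGBC14TKB, the highest of the 12 lines, and −3.47 to −0.29 in the other 6 gallbladder lines, against 2.08 in EGI-1, 2.71 in Sk-ChA-1, −0.43 in SNU-1196, 0.37 in SNU-245 and 3.79 in TFK-1. Without TGBC14TKB, 25 of 25 were below 0, 19 were at an unadjusted p under 0.05, and the median was −2.76; without TFK-1, 16 were below 0 and the median was −0.25. IRF9, the DNA-binding part of the interferon-activated complex, had 352 CPM in TGBC14TKB and 15.2 to 44.3 CPM in the other 6, against 105 to 229 CPM in extrahepatic lines; without TGBC14TKB its difference was −2.69 (adjusted p = 0.0199), where over 12 lines it was −1.26 (adjusted p = 0.65). Among primary lines, of which TGBC14TKB is 1 of 3 from gallbladder, the list median was −0.07.

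Antigen presentation genes lay on opposite sides of 0 by class. Of 15 MHC class I genes, all tested, 15 were below 0 (median −0.78) and 1 was at an unadjusted p under 0.05, the immunoproteasome subunit PSMB10, with 9.29 to 38.5 CPM against 15.8 to 75.7 CPM; without Sk-ChA-1 10 were below 0, 0 reached that p and the median was −0.16, and among primary lines the median was 0.09. Of 12 MHC class II genes 8 had enough counts to be tested; 8 were above 0 and 4 were higher at an unadjusted p under 0.05 (median 2.92; 5 among primary lines). HLA-DRA, a chain of the class II peptide receptor, had 42.7 CPM in SNU-308, 11.3 in OCUG-1, 4.58 in NOZ, 3.26 in TGBC2TKB, 0.698 in TGBC14TKB and at most 0.0733 in G415 and Mz-ChA-2, against 0.0756 to 1.21 CPM in extrahepatic lines (adjusted p = 0.498). HLA-DRA and HLA-DQB1 had enough counts to be tested mainly through gallbladder lines. That all 8 tested members lay above 0 is therefore in part set by which genes could be tested. Without SNU-308, 2 class II genes had enough counts and 0 reached an unadjusted p under 0.05, and the count was 1 without NOZ, OCUG-1, Sk-ChA-1 or SNU-245 and 2 without TGBC14TKB, TGBC2TKB, SNU-1196 or TFK-1. Several class I and II entries are near-identical family members whose reads the authors' counting may have split.

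Several genes of protein synthesis were among the higher genes without overlap between the sites, with differences of moderate size. GARS1, which charges tRNA with glycine, had 230 CPM at the lowest, 298 at the median and 419 at the highest of the gallbladder lines, against 45.0 in EGI-1, 128 in Sk-ChA-1, 125 in SNU-1196, 140 in SNU-245 and 130 in TFK-1 (log2 difference 1.39 ± 0.31 SE, unadjusted p = 0.000601, adjusted p = 0.286). NOL6, a nucleolar protein of ribosome biogenesis, had 82.2, 105 and 110 CPM as lowest, median and highest, against 58.3, 50.1, 50.1, 44.8 and 67.0 CPM in EGI-1, Sk-ChA-1, SNU-1196, SNU-245 and TFK-1 (0.88 ± 0.19 SE, adjusted p = 0.286). MPV17L2, a protein of mitochondrial ribosome assembly, had 19.6 to 26.3 CPM against 8.22 to 12.3 CPM, and NXPE3 20.0 to 96.7 CPM against 0.198 to 14.6 CPM; neither overlapped.

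Because GARS1 was among them, the 20 cytosolic tRNA synthetase genes were described as a family, a choice made after values were seen. Of the 20, all tested, 18 had a difference above 0, where 54.8% of all genes tested did. At an unadjusted p under 0.05, 7 were higher and 0 lower, where 4.31% of all genes were higher and 4.67% lower. The adjusted threshold was passed by 0 in edgeR and 3 in DESeq2. The family median was 0.60, beside 0.07 over all genes tested. Their summed level was 4130 CPM in G415, 3720 in Mz-ChA-2, 4330 in NOZ, 3450 in OCUG-1, 5350 in SNU-308, 3910 in TGBC14TKB and 4930 in TGBC2TKB, against 2100 in EGI-1, 2500 in Sk-ChA-1, 3020 in SNU-1196, 2730 in SNU-245 and 3140 in TFK-1. The sums did not overlap, with OCUG-1 and TFK-1 the nearest pair. SARS1, for serine, had 24.4, 74.5 and 133 CPM as lowest, median and highest of the gallbladder lines, against 12.6 to 20.3 CPM in extrahepatic lines, without overlap (2.06 ± 0.46 SE, unadjusted p = 0.00069). MARS1, for methionine, had 120, 340 and 650 CPM, against 78.6 to 142 CPM, with OCUG-1 the gallbladder line inside the extrahepatic range (1.69 ± 0.41 SE, unadjusted p = 0.00128). The level of QARS1, for glutamine, was 138 to 332 CPM in gallbladder lines, against 167 to 339 CPM in extrahepatic lines. With each line left out the family median stayed between 0.50 and 0.68. Among primary lines it was 0.64 with 16 of 20 above 0, where 50.9% of all genes tested lay above 0. With repository as a covariate it was 0.35 with 14 of 20 above 0, beside a median of −0.01 over all genes in that fit.

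Synthetase genes belong to the set that the transcription factor ATF4 raises when amino acids run short, together with genes of amino acid synthesis and stress. Genes of that set, again chosen after their values were seen, are given here as values, and not all of them separated the sites. XPOT, which exports tRNA from the nucleus, had 112 to 296 CPM in gallbladder lines against 50.8 to 116 CPM in extrahepatic lines (1.55 ± 0.35 SE, unadjusted p = 0.000748). ASNS, asparagine synthetase, had 76.9 CPM in G415, 301 in Mz-ChA-2, 145 in NOZ, 35.1 in OCUG-1, 406 in SNU-308, 198 in TGBC14TKB and 234 in TGBC2TKB, against 18.3, 30.0, 61.2, 59.1 and 31.8 CPM in EGI-1, Sk-ChA-1, SNU-1196, SNU-245 and TFK-1 (2.32 ± 0.57 SE, unadjusted p = 0.00147, adjusted p = 0.346). OCUG-1 was the gallbladder line inside the extrahepatic range, as it was for MARS1. CHAC1, which degrades glutathione, had 3.25 to 47.8 CPM against 1.85 to 6.93 CPM (2.41 ± 0.74 SE, adjusted p = 0.47). PSPH and SHMT2, of serine and glycine metabolism, differed by 1.19 and 1.04 (unadjusted p = 0.0165 and 0.0244) and SESN2, a stress sensor, by 1.66 (0.0183). The stress factor DDIT3 had 9.75 to 126 CPM in gallbladder lines against 9.99 to 31.9 CPM in extrahepatic lines (unadjusted p = 0.0622). A pair of enzymes of serine synthesis overlapped widely: PSAT1 had no count in G415 and 26.8 to 364 CPM in the other 6 gallbladder lines, against 30.4 to 96.9 CPM in extrahepatic lines, and PHGDH had 1.37 to 470 CPM against 2.59 to 344 CPM. The ATF4 transcript itself had 228 to 444 CPM in gallbladder lines and 237 to 509 CPM in extrahepatic lines; ATF4 is controlled largely at translation, which mRNA counts do not measure.

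**Figure D5:**
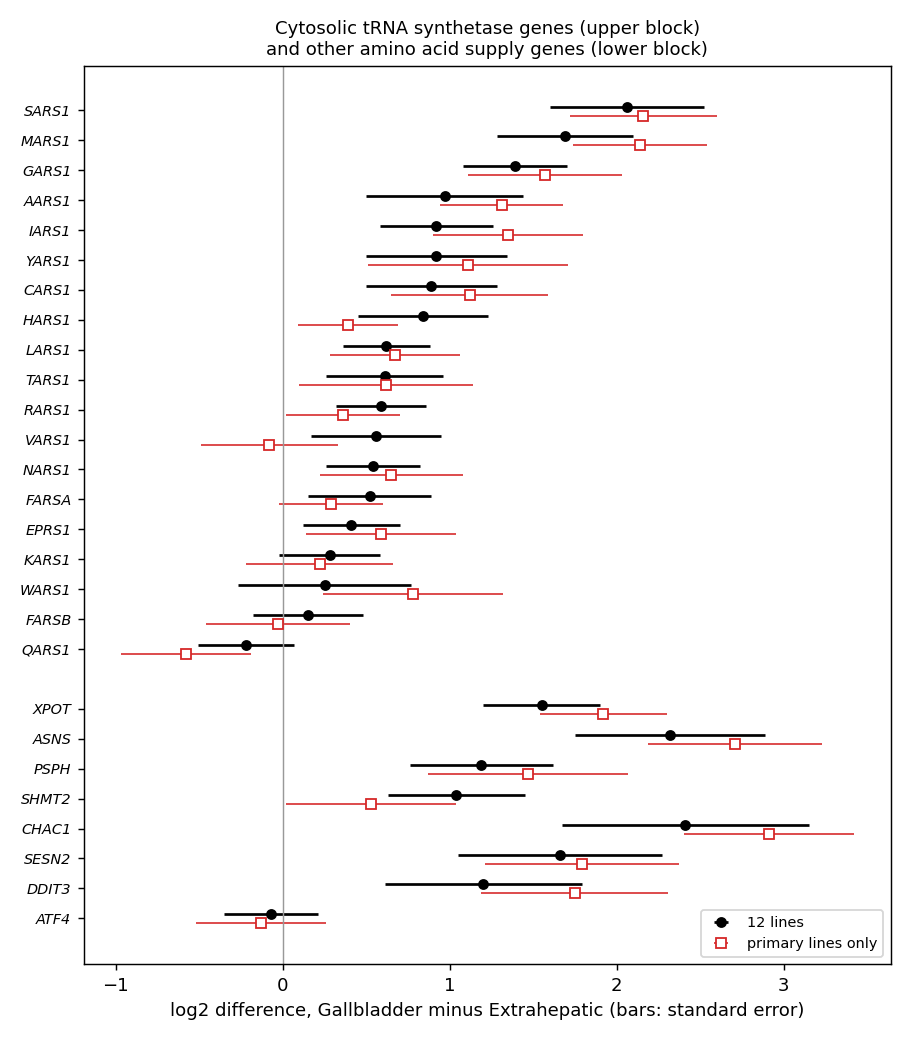
Log2 difference, gallbladder minus extrahepatic, of 19 of the 20 cytosolic tRNA synthetase genes (upper block, ordered by size) and 8 other amino acid supply genes (lower block), with standard errors; black points are the 12 lines and open squares the primary lines. In the 12 lines 18 of the synthetase genes shown lie above 0, and ATF4 lies near 0.

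Stretches of 4 promoters from these genes are shown because they hold the amino acid response element TGATGNAA, the letters that ATF4 with its partners is known to bind (RefSeq, GRCh38.p14, bases before the start only, 5′ to 3′ along the gene). Capitals mark the element, read on either strand, where TTGCATCA is its reverse complement. The positions are chr7:97872423-97872522 on the minus strand for ASNS, chr15:40953221-40953315 on the plus strand for CHAC1, chr16:70289640-70289739 on the minus strand for AARS1, and chr9:92293698-92293756 on the minus strand for IARS1.
ASNS: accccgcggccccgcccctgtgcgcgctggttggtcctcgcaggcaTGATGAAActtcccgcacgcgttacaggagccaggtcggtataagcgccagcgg
CHAC1: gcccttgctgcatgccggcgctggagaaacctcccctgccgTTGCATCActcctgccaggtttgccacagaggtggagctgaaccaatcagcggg
AARS1: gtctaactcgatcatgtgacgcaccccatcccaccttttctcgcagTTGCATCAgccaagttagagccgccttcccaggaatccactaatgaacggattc
IARS1: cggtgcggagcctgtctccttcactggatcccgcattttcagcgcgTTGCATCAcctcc
Of the 20 synthetase genes 16 had a promoter window in the table. Of these, 7 held the element, where 4.46% of the 27305 genes of the table do, and SARS1 did not. Among the other supply genes above, PSPH and SHMT2 had no window. ASNS and CHAC1 held the element, while XPOT, PSAT1, PHGDH, SESN2, ATF4 and DDIT3 did not. A match is no evidence of binding, and its absence says only that the letters are not in that window. AARS1, for alanine, had 95.7 to 611 CPM in gallbladder lines against 156 to 274 CPM in extrahepatic lines (0.97, unadjusted p = 0.0609), and IARS1, for isoleucine, 273 to 737 CPM against 136 to 326 CPM (0.92, unadjusted p = 0.0174).

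Among primary lines alone, 14915 genes were tested and 0 were called by edgeR (962 at an unadjusted p under 0.05; limma-voom called 0 and DESeq2 259). The smallest p belonged to CTAG2, a cancer-testis antigen, with 67.5 CPM in SNU-308, 34.6 in TGBC14TKB and 10.6 in TGBC2TKB against at most 0.0756 CPM in EGI-1, SNU-1196, SNU-245 and TFK-1 (unadjusted p = 2.64e-05); the 4 metastatic gallbladder lines had at most 0.232 CPM. PRSS21, a serine protease of testis, had 51.0, 9.29 and 6.0 CPM in SNU-308, TGBC14TKB and TGBC2TKB against at most 0.0991 CPM, and DPYSL3, a protein of neuronal growth cones, 131, 26.7 and 284 CPM against 0.209 to 2.48 CPM. On the lower side, DNMBP, a scaffold protein of cell junctions, had 27.8, 24 and 33.4 CPM in these gallbladder lines against 91.4, 132, 138 and 76.5 CPM in EGI-1, SNU-1196, SNU-245 and TFK-1 (−1.95, unadjusted p = 0.0008). The metastatic gallbladder lines had 38.4 to 361 CPM of DNMBP, and over 12 lines its difference was 0.02. EPS8L3, a regulator of actin in microvilli, had 0.205, 0.489 and 2.66 CPM against 28.8 to 241 CPM.

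Several lists held few genes past an unadjusted p under 0.05. Of 25 cell cycle genes none reached an unadjusted p under 0.05 in either direction (median 0.08), and the same held for 19 NRF2 target genes (median −0.01). The NRF2 value rested on TFK-1, whose score was 2.97: without it 17 of 19 were above 0, 2 were higher at that p and the median was 1.22, and among primary lines the median was 0.62. Hypoxia genes had 1 higher, the mitophagy protein BNIP3, and 1 lower, the glycolytic regulator PFKFB3, of 16. Of 17 tested Notch pathway genes 1 was lower, the glycosyltransferase LFNG. Of 28 HOX genes HOXC13 was higher and HOXA13 lower at that p. Squamous genes had 2 higher and 1 lower of 12, and 0 higher without SNU-308; KRT6A, a keratin of stratified epithelium, had 1720 CPM in SNU-308 and at most 10.1 CPM in any other line. Of 17 tested cytokine genes 2 were lower, the interleukin-6 family member LIF (2.72 to 137 CPM against 96.2 to 244 CPM) and IL18 (19.4 to 83.8 against 43.7 to 176 CPM), and 1 was higher. With single lines left out, the counts of these lists stayed between 0 and 3 in each direction.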

How the data were processed

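The authors deposited 1 table of unnormalized read counts by gene. The submitters' processing notes name featureCounts, Picard 1.69, TopHat2 2.0.8, Trimmomatic and hg19; strand setting and annotation are not given in these sources, so overlapping genes may share reads. Of 24222 entries, 23508 were named through a RefSeq table and 358 through GENCODE; 356 unnamed entries held 0.47% of counts. Counts were tested with the robust two-sided quasi-likelihood test of edgeR 4.0.16 (R 4.3.3), after filterByExpr and TMM scaling and with Benjamini-Hochberg adjustment, over 12 lines and again over primary lines; CPM use TMM-scaled library sizes. In simulated data of 12 lines, the test recovered 0% of genes with a log2 change of 1, 18% of 2 and 58% of 3 (50 genes each). Alternatives were DESeq2 1.42.0, limma-voom 3.58.1, other scaling and filters, covariates, subsets and leaving out each line. Each subset was filtered anew, so the number of list members tested can change with the line left out. The lines and gene lists were chosen with earlier results of these data known. Genes are named by rule: the 12 of smallest p per direction, the 5 widest gaps between sites per direction, 5 per direction in primary lines, and 2 per list; any other gene named was chosen after its values were seen. Some genes are not reported here.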

Additional observations from a re-analysis of the deposited data

Results flagged for a closer look

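Within each site, 136 groups of values (log2(CPM + 0.5) of a gene, or a list score) were examined for a line far from the others by Dixon's test, and 21 were marked. By its critical values chance marks about 1 in 20 groups, and neighbouring genes are not independent. That rate does not hold where all lines but 1 had no count, as for PWAR5, LRRTM4 and CTAG2 in extrahepatic lines. A single read is always marked there. OCUG-1 lay lowest of the gallbladder lines at −1.0 for SNRPN, SNURF and IPW, which had no count there, while the next lines had 5.05, 5.05 and 3.77. TGBC14TKB lay highest of the gallbladder lines at 1.12 for SLC15A1, 1.69 for TMPRSS2 and 4.14 for the interferon score. NOZ lay highest at 1.16 for LINC01559. G415 lay lowest at −2.62 for the biliary epithelium score, and Mz-ChA-2 at −0.5 for the tumour suppressor score.

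Among extrahepatic lines, SNU-245 lay highest at 0.48 for SNRPN and SNURF, −0.74 for PWAR5 and −0.01 for IPW, which are 9 reads or fewer of each, and at 2.35 for the foregut transcription factor score. SNU-1196 lay highest at −0.8 for LRRTM4 and for CTAG2, each from 1 read. EGI-1 lay lowest at 5.51 for GARS1 and highest at 0.78 for the MHC class II score. Sk-ChA-1 lay highest at 3.77 for PRSS21 and at 8.56 for CCDC6, and lowest at −1.42 for the epithelial score, where it is the 1 metastatic line of its site.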

How the results depend on the processing

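Of the 12-line comparison's count of 1 call, RLE scaling, both other count filters, the non-robust fit and the origin covariate each gave 1. DESeq2 gave 252 (130 higher, 122 lower), and limma-voom, the repository covariate, the KCLB and Zurich lines with that covariate and the 19-line fit each gave 0. Leaving out each line gave 1 to 5: OCUG-1 left out gave 5, TGBC14TKB 3 and EGI-1 2. Among primary lines the count of 0 became 259 with DESeq2 (141 higher, 118 lower) and 0 to 3 with each line left out, the 3 being CDKN2A, SNRPN and SNURF without SNU-245. The site share of variance ran from 13.7% to 17.9% with each line left out (exact permutation p from 0.00649 to 0.0424) and from 14.6% to 16.3% over the other settings. Among primary lines it ran from 23.1% to 28.7% with each line left out (exact permutation p from 0.0667 to 0.133). Over the other settings it ran from 21.8% to 24.5% there. The share expected of any division also rises when a line is left out. The DNMBP difference of 0.02 turned to −0.66 with limma-voom, −1.33 with the origin covariate, −1.72 with the repository covariate, −1.96 in the KCLB and Zurich lines, −1.95 in primary lines, and lay between −0.64 (without NOZ) and 0.2 (without TGBC14TKB) with each line left out. With the repository covariate LYZ turned to 0.24 and MUC5B to 0.96; in the KCLB and Zurich lines MUC5B turned to 1.04 and ERBB3 to 0.91. The causes were not tested. No paired analysis was possible because the replicate numbers follow the order of deposition and pair no lines. With a common dispersion of 0.728, changes under a log2 of 2 were mostly out of reach at this number of lines.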

Other observations

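Chromosome 22 had the highest share of genes at an unadjusted p under 0.05 on the lower side among the 23 chromosomes tabulated, a choice made after all were inspected; the difference from other chromosomes was not tested, and neighbouring genes are not independent. Of 369 tested genes placed there by the RefSeq table, 305 had a log2 difference below 0, 49 (13.3%) were lower and 4 (1.08%) higher at an unadjusted p under 0.05, and the median was −0.43, beside 4.67% lower and a median of 0.07 over all genes tested. The median of the chromosome's genes, each centred on its mean over the 12 lines, was 0.01 in G415, −0.04 in Mz-ChA-2, −0.28 in NOZ and OCUG-1, −0.49 in SNU-308, −0.11 in TGBC14TKB and −0.14 in TGBC2TKB, against 0.12 in EGI-1, 0.6 in Sk-ChA-1, 0.14 in SNU-1196 and TFK-1 and 0.38 in SNU-245. The sites did not overlap in this value. Among primary lines the median difference was −0.50 and 7.36% of the genes were lower at that p, beside 2.84% of all genes. ZNRF3 and LIF, described above, lie on this chromosome.

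Chromosome 14 followed with 46 of 468 genes lower (9.83%) and 5 higher (1.07%), but the medians of its genes overlapped between the sites: they ran from −0.43 to 0.28 in gallbladder lines and from −0.12 to 0.45 in extrahepatic lines. On the higher side chromosome 5 had 57 of 656 genes (8.69%) and chromosome 17 had 74 of 899 (8.23%), the second with 61 lower as well. Copy number was not analysed here.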
